A study of Mus musculus with 12 samples.

Results

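Nuclear genes of respiratory complexes II to V were followed in mouse myocardium, the muscle of the heart, after sham surgery or myocardial infarction (MI) and with or without weekly prednisone. They were chosen by symbol: Sdha to Sdhd and the Sdhaf genes, and every symbol that begins with Uqcr, with Cox4 to Cox8 or with Atp5, leaving out 6 pseudogene symbols that hold -ps. The rule took 51 of the 33641 gene symbols in the deposited table, and transcripts were summed to genes. The rule itself uses no measured value, although it was written with earlier results of these data known. Of the 51 genes, 49 reached 1 TPM in at least 3 of the 12 libraries and were tested. The other two were Cox7b2 and Cox8c.

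The 4 groups had 3 mice each. All were male C57BL/6 wild-type mice, about 10 weeks old when treatment began and about 16 weeks old at collection. The groups were sham with vehicle, sham with prednisone, MI with vehicle and MI with prednisone. Prednisone, a synthetic glucocorticoid, was injected intraperitoneally at 1 mg/kg in PBS from a DMSO stock, once a week for 6 weeks at lights-on (zeitgeber time 0), beginning 2 weeks after surgery. Tissue was taken 24 h after the last injection. The sham groups went through an operation too, and no unoperated mice are among the samples used here. The labels name the tissue as myocardium and do not say which region of an infarcted heart it came from. The replicate numbers 1 to 3 belong to different mice in each group.

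Complexes II to V are protein assemblies of the inner mitochondrial membrane. Complex II (succinate dehydrogenase) passes electrons from succinate to ubiquinone, complex III passes them on to cytochrome c, and complex IV (cytochrome c oxidase) passes them to oxygen. Complexes III and IV pump protons, and complex V (ATP synthase) lets them flow back to make ATP. The heart depends on this route for most of its ATP, and its cardiomyocytes are densely packed with mitochondria. Complex II is encoded in the nucleus alone, while complexes III, IV and V also contain subunits encoded in mitochondrial DNA. Several complex IV subunits exist as a form found in most tissues and a form of heart and skeletal muscle.

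The genes fell into 5 groups by role. Complex II had 4 subunits: Sdha, the flavoprotein that oxidises succinate, Sdhb, the iron-sulfur subunit, and Sdhc and Sdhd, which anchor the enzyme in the membrane. Its 4 assembly factors were Sdhaf1 and Sdhaf3, which serve the iron-sulfur clusters of Sdhb, Sdhaf2, which attaches FAD to Sdha, and Sdhaf4, which binds Sdha during assembly. Complex III had 8 genes: the core proteins Uqcrc1 and Uqcrc2, the Rieske iron-sulfur protein Uqcrfs1, and the small subunits Uqcrh (the hinge protein), Uqcrb, Uqcrq, Uqcr10 and Uqcr11. Complex IV had 18: Cox4i1, Cox5a, Cox5b, Cox6b1, Cox6c, Cox7b and Cox7c, the isoforms Cox4i2, Cox6a1, Cox6a2, Cox6b2, Cox7a1, Cox7a2, Cox7b2, Cox8a, Cox8b and Cox8c, and Cox7a2l, a factor of respiratory supercomplexes. Complex V had 17: the catalytic head genes Atp5a1 (alpha), Atp5b (beta), Atp5c1 (gamma), Atp5d (delta) and Atp5e (epsilon), the stalk genes Atp5o, Atp5f1, Atp5h and Atp5j, the membrane subunits Atp5j2, Atp5k and Atp5l, and the c-ring genes Atp5g1, Atp5g2 and Atp5g3. Atp5s and Atp5sl were also caught by the rule. Newer RefSeq names for them are Dmac2l and Dmac2, and Dmac2 is an assembly factor of complex I.

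Values are TPM, transcripts per 1000000: shares of a library, per length of transcript. The files do not give the read depth. Between 11690 and 14307 genes reached 1 TPM per library. MI vehicle 3 stood apart, with the highest of these numbers against a next highest of 12772. Its median gene lay 0.74 above the sham vehicle mean on the log2(TPM + 1) scale, against -0.07 to 0.25 in the other libraries, and the counts of calls against MI vehicle are therefore also given after rescaling. Mitochondrially encoded transcripts took 21.6% to 42.0% of TPM, with the lowest shares in MI prednisone 2 (21.6%), MI vehicle 3 (23.1%) and MI prednisone 1 (24.6%). As a check on the tissue, the 10 markers of ventricular cardiomyocytes (Myh6, Myl2, Tnnt2 and others) were present in every library, with summed levels of 47804 to 50748 TPM in sham vehicle, 48889 to 57044 in sham prednisone, 34949 to 44649 in MI vehicle and 50238 to 54059.5 in MI prednisone.

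In sham vehicle hearts the genes of complexes II to V together took 6.57 ± 0.430% (SD, n = 3) of the TPM outside mitochondrially encoded transcripts. The share was 6.55 ± 0.375% in sham prednisone, 5.10 ± 0.713% in MI vehicle and 6.62 ± 0.346% in MI prednisone, and MI vehicle 3 was the lowest library at 4.28%. Summed TPM in sham vehicle was 16863 ± 408 for complex V, 15008 ± 302 for complex IV, 6764 ± 290.3 for complex III and 1779.9 ± 60.3 for the 4 subunits of complex II. The assembly factors of complex II summed to 66.5 ± 1.22 TPM. The gene of highest level was Atp5b, the catalytic beta subunit, at 2847 TPM in sham vehicle, and the highest of complex IV was the muscle isoform Cox7a1 at 1980.3. In complex III the small subunit Uqcr11 led at 1266 TPM and the core protein Uqcrc2 was lowest at 431. The other core protein, Uqcrc1, is listed as 16 transcripts that form 8 pairs of identical values, which sum to 629.7 TPM. With each pair counted once it would be at 315 and rank below Uqcrc2, but the TPM of a library sum to 1000000 only with both of each pair. Far lower sham vehicle means were those of Atp5g2 (15.7 TPM), Cox4i2 (10.5) and Cox6b2 (4.99), with Atp5s between the first 2 of these.

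Across groups the complexes did not keep step. Summed complex II TPM was 1711, 1823 and 1806 in the sham vehicle libraries, 1772, 1809 and 1928 in sham prednisone, 1499, 1487 and 1416 in MI vehicle and 1359, 1491 and 1518 in MI prednisone, so that both MI groups lay below both sham groups. Summed complex IV TPM was 14669, 15249.5 and 15105 in the sham vehicle libraries, 14631, 15804 and 17388 in sham prednisone, 13189, 13060.5 and 12319.9 in MI vehicle and 18562, 21648 and 16677 in MI prednisone. Here MI vehicle was lowest, and MI prednisone 1 and 2 exceeded every sham library. Complex II made up 4.35, 4.40 and 4.44% of the summed TPM of all these genes in the sham vehicle libraries, 4.49, 4.29 and 4.18% in sham prednisone, 4.25, 4.20 and 4.30% in MI vehicle and 2.89, 2.74 and 3.55% in MI prednisone. The MI prednisone libraries did not overlap with any other group in that share, which is unaffected by the scaling of a library. The ratio of these genes to 37 nuclear genes with complex I symbols, in contrast, stayed between 2.50 and 2.58 in all 12 libraries. That list was chosen by symbol and includes Ndufa4, a subunit of complex IV, at 1499 to 1560 TPM in sham vehicle and 1756 to 2322 in MI prednisone. All 4 complex II subunits have 1142 bases or more, and the prednisone difference in MI went with transcript length, as described below. The part of length in the complex II share was not tested.

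**Figure D1:**
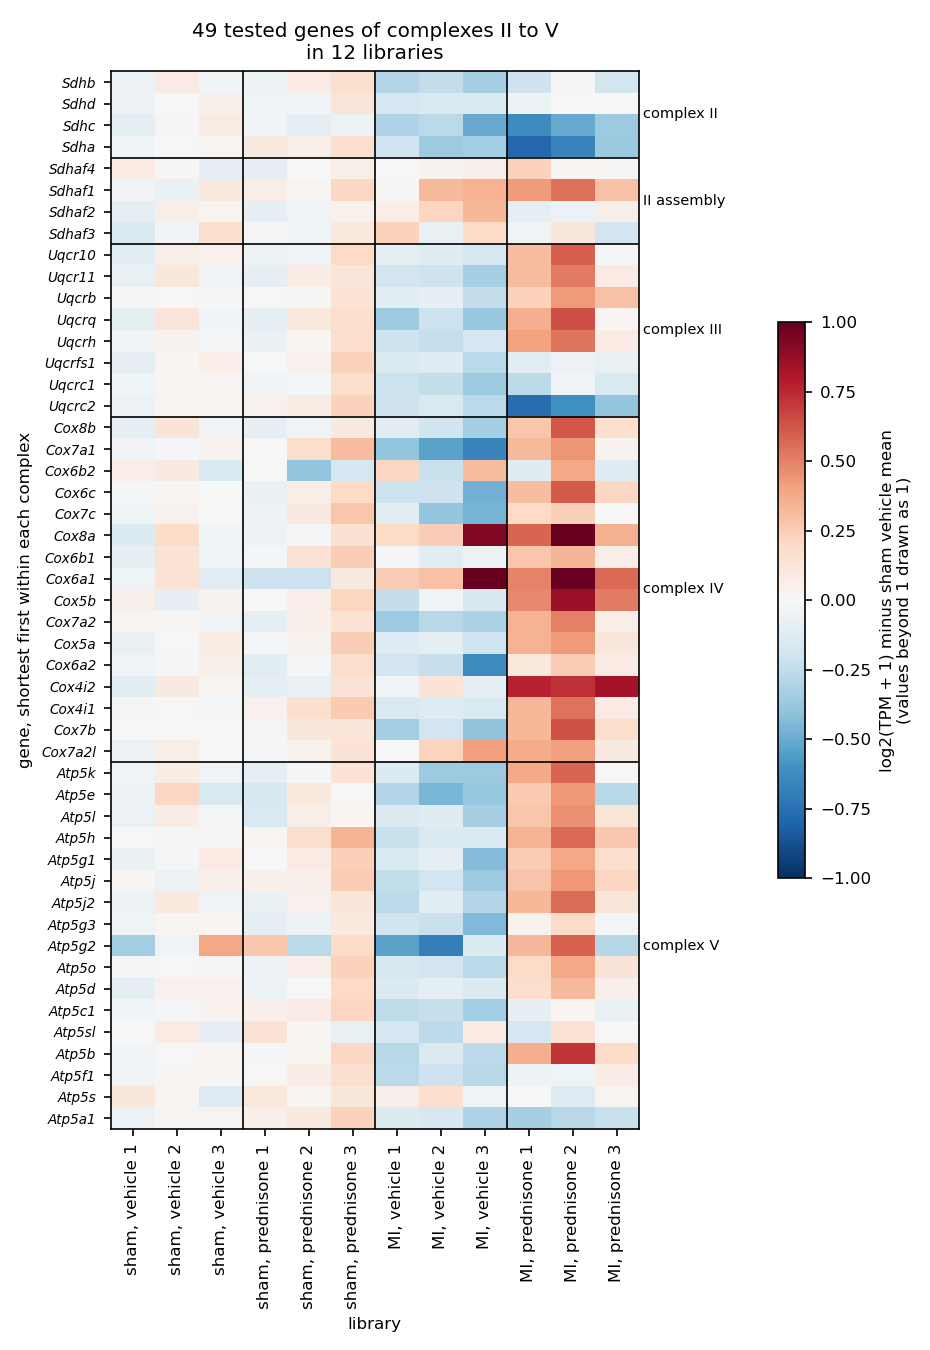
Change of each of the 49 tested genes (y axis, shortest transcript first within each complex) in each of the 12 libraries (x axis), as log2(TPM + 1) minus the mean of the sham vehicle group, with values beyond 1 drawn as 1. MI vehicle is mostly blue (lower), MI prednisone is mostly red (higher) for short genes and blue for Sdha, Sdhc, Uqcrc2 and Atp5a1, and Cox6a1 and Cox8a stand out in MI vehicle 3 and MI prednisone 2. On values rescaled by the median ratio of all genes, Sdha and Uqcrc2 no longer differ in that direction between MI prednisone and MI vehicle.

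The first comparison asked how infarction changed these genes without prednisone. Cox7a1, Sdhc and Atp5c1 fell in infarcted vehicle hearts, and no other of the 49 genes passed the test. The test was limma on log2(TPM + 1) over 13158 genes, and called means a Benjamini-Hochberg adjusted p under 0.05. Of the 49 genes, 0 were called higher and 3 lower, where 15.1% of all tested genes were called higher and 0.904% lower. 39 of the 49 had a value below 0 and the median change was -0.21, against 0.39 over all tested genes. In 33 genes all 3 MI libraries lay below all 3 sham libraries (background 4.17% of all genes), and in 3 all lay above (background 40.8%). In bulk tissue, fewer cells of a type and less RNA per cell cannot be told apart.

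The called genes were Cox7a1, Sdhc and Atp5c1. Cox7a1 (chromosome 7, 30184144 to 30186078, plus strand, GRCm38), the heart and muscle form of a small complex IV subunit, stood at 1937, 1964 and 2040.0 TPM in the sham vehicle libraries, 1984, 2241 and 2468 in sham prednisone, 1515, 1363 and 1253 in MI vehicle and 2479.9, 2686 and 2029 in MI prednisone. Its 3 MI vehicle libraries were the lowest of all 12, and the change from sham vehicle was -0.53 ± 0.13 (SE; limma adjusted p = 0.0238). Sdhc (chromosome 1, 171127165 to 171150603, minus strand), a membrane anchor of complex II, stood at 322, 346 and 363 TPM in the sham vehicle libraries, 337, 322 and 330.5 in sham prednisone, 277, 285 and 242 in MI vehicle and 221, 242 and 266 in MI prednisone. Every infarcted library, with or without prednisone, was below every sham library, and the fall was -0.36 ± 0.10 (SE; limma adjusted p = 0.0375). Atp5c1 (chromosome 2, 10056016 to 10080510, minus strand), the gamma subunit that rotates in the head of ATP synthase, stood at 997, 1008 and 1038 TPM in the sham vehicle libraries, 1051, 1076 and 1175 in sham prednisone, 849, 865 and 803 in MI vehicle and 960.3, 1029 and 961 in MI prednisone. MI vehicle was the lowest group and did not overlap with sham, and the fall was -0.27 ± 0.08 (SE; limma adjusted p = 0.0457).

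By complex, all 4 complex II subunits had values below 0, with a median of -0.29, as had all 8 complex III genes (-0.21), 11 of 16 complex IV genes (-0.14) and 16 of 17 complex V genes (-0.22). The iron-sulfur subunit Sdhb stood at 612, 674 and 623 TPM in the sham vehicle libraries, 614, 671 and 709.8 in sham prednisone, 519.8, 538 and 506 in MI vehicle and 549, 627 and 559.6 in MI prednisone. Its MI vehicle libraries lay below those of both sham groups, at -0.29 ± 0.09 (SE; limma adjusted p = 0.0537). The Rieske protein Uqcrfs1 stood at 467, 504 and 519 TPM in the sham vehicle libraries, 498, 511 and 581 in sham prednisone, 449, 453 and 411 in MI vehicle and 458, 475 and 471 in MI prednisone. MI vehicle again lay below sham vehicle in every library, and the difference was -0.18 ± 0.09 (SE; limma adjusted p = 0.140). Neither passed the test.

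The count rests on the scaling and on single libraries. Rescaling each library by its median ratio, which moved MI vehicle 3 by a factor of 1.65 and the others by 0.871 to 1.14, gave 21 genes lower and 0 higher, with a median of -0.65 against 0.02 over all genes, where 3.72% of all genes were called lower and 3.72% higher. Those 21 included all 4 complex II subunits, with Sdha at -0.74 and Sdhb at -0.73. Without MI vehicle 3, or without any 1 of the sham vehicle libraries, none was called by limma on the values as deposited, although 17 were at an unadjusted p under 0.05 with all libraries. Leaving out any 1 sham prednisone library, which enters only the estimate of spread, left 1 call, leaving out MI vehicle 1 gave 9, and leaving out MI prednisone 3 gave 6. Shares of all genes called with a library left out are not given here. A correction for transcript length, described below, gave 0 higher and 7 lower, against 3.04% and 3.16% of all genes. Coding transcripts alone gave 0 and 5, against 22.5% and 1.15%.

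Markers of other cell types moved with this comparison. All 6 fibroblast markers (Col1a1, Dcn, Postn and others) and all 6 macrophage markers (Cd68, Lyz2 and others) were called higher in MI vehicle than in sham vehicle, as were 3 of 6 endothelial and 2 of 3 smooth muscle markers, where 15.1% of all genes were. Summed fibroblast markers were 333 to 435 TPM in sham vehicle, 355 to 424 in sham prednisone, 739 to 971 in MI vehicle and 279 to 491 in MI prednisone. Summed macrophage markers were 222 to 327 TPM in sham vehicle, 261 to 346 in sham prednisone, 516 to 1206 in MI vehicle and 254 to 483 in MI prednisone. Of the 10 ventricular markers, 2 were called lower, where 0.904% of all genes were. After rescaling, 3 of the fibroblast markers, 3 of the macrophage markers and none of the endothelial or smooth muscle markers were called higher by limma (against 3.72% of all genes), with 1 and 1 at an unadjusted p under 0.05. None of these markers was at 0 in any library. Their part in the changes of the respiratory genes was not tested.

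Prednisone in sham hearts changed none of the 49 genes detectably. By limma 0 were called higher and 0 lower, where 0.0532% and 0.0608% of all tested genes were, and 0 were at an unadjusted p under 0.05. No other tool was run, and each of the 23 other settings of limma also called none. Estimates ran from -0.19 ± 0.19 for Cox6b2 to 0.18 ± 0.11 (SE) for Atp5h, with a median of 0.05, against 0.07 over all genes. In 7 genes (Atp5a1, Atp5c1, Atp5h, Atp5j, Cox4i1, Sdha and Uqcrc2) all prednisone libraries exceeded all vehicle libraries, against a background of 15.6%. After rescaling the median was -0.04, with 0.0532% of all genes called higher and 0.0684% lower, so that the sign of the median rests on the scaling. After the length correction 0.0305% and 0.0838% were called, and from coding transcripts 0.0753% and 0.0669%. Standard errors ran from 0.08 to 0.30. A call over all genes needs a change well beyond its standard error, so that changes larger than these could also be missed with 3 mice per group.

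In infarcted hearts prednisone went with higher levels of most of these genes, and on the values as deposited with lower levels of Sdha and Uqcrc2. Of the 49, 29 were called higher and 2 lower by limma, where 2.5% of all tested genes were called higher and 34.9% lower. The median change was 0.44, against -0.41 over all genes. In 33 genes all MI prednisone libraries lay above all MI vehicle libraries (background 3.59%), and in 3 all lay below (background 42.6%). By complex, calls higher and lower were 0 and 1 of 4 for complex II, 0 and 0 of 4 for its assembly factors, 5 and 1 of 8 for complex III, 11 and 0 of 16 for complex IV and 13 and 0 of 17 for complex V.

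Rescaling by the median ratio gave 41 genes higher and 0 lower, with a median of 0.90 against -0.02 over all genes, where 14.6% of all genes were called higher and 14.2% lower. Without MI vehicle 3 the counts were 25 and 1. A fit with the 6 MI libraries alone, which has fewer libraries for the spread, called 3 higher and 0 lower, while 28 were at an unadjusted p under 0.05. The shares of all genes called without MI vehicle 3 and in this fit are not given here. Mitochondrially encoded transcripts took 35.2, 36.7 and 23.1% of TPM in MI vehicle and 24.6, 21.6 and 35.9% in MI prednisone. Of the TPM outside them, the genes of complexes II to V took 5.44, 5.59 and 4.28% and 6.25, 6.93 and 6.68%, without overlap.

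In complex II, Sdha (chromosome 13, 74322254 to 74350280, minus strand) stood at 465, 479 and 486 TPM in the sham vehicle libraries, 507, 498 and 537 in sham prednisone, 415, 372 and 376 in MI vehicle and 276, 300.2 and 368 in MI prednisone. MI prednisone was the lowest group and did not overlap with the others, and the change from MI vehicle was -0.31 ± 0.11 (SE; limma adjusted p = 0.0434), but 0.15 and not called after rescaling. This fall was called in 4 of 23 alternative settings. Sdhb, given above, had 0.15 ± 0.09 (SE; limma adjusted p = 0.211) and Sdhd 0.14 ± 0.08 (SE; limma adjusted p = 0.186), and in both every MI prednisone library exceeded every MI vehicle library. Sdhc was at -0.14 ± 0.10 (SE; limma adjusted p = 0.270). The 4 assembly factors lay between -0.23 for Sdhaf2 and 0.20 for Sdhaf1, and none was called by limma, with 1 at an unadjusted p under 0.05.

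In complex III all 5 small subunits were called higher, the core protein Uqcrc2 was called lower on the values as deposited, and Uqcrc1 and Uqcrfs1 were not called. Uqcrc2 (chromosome 7, 120635176 to 120659524, plus strand) stood at 414, 440.3 and 439 TPM in the sham vehicle libraries, 444, 455 and 506 in sham prednisone, 372, 387 and 358 in MI vehicle and 253, 282 and 327 in MI prednisone. Its change was -0.38 ± 0.10 (SE; limma adjusted p = 0.0162), with no overlap between the groups, but 0.08 and not called after rescaling. Uqcrc1, the other core protein, stood at 610.4, 639.6 and 639 TPM in the sham vehicle libraries, 613, 626 and 712 in sham prednisone, 542, 534 and 490.5 in MI vehicle and 524, 616 and 567 in MI prednisone. The MI groups overlapped, at 0.12 ± 0.09 (SE; limma adjusted p = 0.322). Uqcrfs1, given above, was at 0.10 ± 0.09 (SE; limma adjusted p = 0.401). Uqcrb, a small subunit, stood at 782, 785 and 793 TPM in the sham vehicle libraries, 784, 794 and 865 in sham prednisone, 728, 744 and 668 in MI vehicle and 925, 1057 and 963 in MI prednisone. Every MI prednisone library exceeded all others, and the rise over MI vehicle was 0.46 ± 0.09 (SE; limma adjusted p = 0.00328). Uqcrq rose by 0.66 ± 0.15 (SE; limma adjusted p = 0.00618), Uqcr11 by 0.55 and the hinge protein Uqcrh by 0.54, and Uqcr10 had the smallest called rise of the complex at 0.42.

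In complex IV, Cox4i2 (chromosome 2, 152754173 to 152765037, plus strand), an isoform of subunit 4 known for its response to low oxygen, stood at 9.63, 11.2 and 10.7 TPM in the sham vehicle libraries, 9.76, 9.99 and 11.6 in sham prednisone, 10.3, 11.6 and 9.77 in MI vehicle and 18.6, 18.1 and 19.4 in MI prednisone. The 3 MI prednisone hearts stood above the other 9, which overlapped, and the rise over MI vehicle was 0.77 ± 0.11 (SE; limma adjusted p = 0.00122), called in 23 of 23 alternative settings. Cox4i1, the main form, stood at 1818, 1812 and 1789 TPM in the sham vehicle libraries, 1857, 2024 and 2171 in sham prednisone, 1622, 1654 and 1634 in MI vehicle and 2275, 2638 and 1912 in MI prednisone. MI prednisone 3 fell within the sham range and the other 2 lay above it, and the rise over MI vehicle was 0.46 ± 0.12 (SE; limma adjusted p = 0.0106). Cox4i2 was a small fraction of Cox4i1: the ratio of their TPM was between 0.00494 and 0.0102 in all libraries.

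Cox5a, which binds subunit 4 in complex IV, stood at 1002, 1051 and 1107 TPM in the sham vehicle libraries, 1039, 1081 and 1251 in sham prednisone, 965, 981 and 919 in MI vehicle and 1337, 1414 and 1141 in MI prednisone. It rose in MI by 0.44 ± 0.11 (SE; limma adjusted p = 0.00960). Cox5b (chromosome 1, 36691449 to 36693681, plus strand), a zinc-binding subunit, stood at 1341, 1226 and 1328 TPM in the sham vehicle libraries, 1296, 1357 and 1505 in sham prednisone, 1100.4, 1256 and 1162 in MI vehicle and 1808, 2342 and 1852 in MI prednisone. All 3 MI prednisone libraries were above the other 9, and the rise over MI vehicle was 0.76 ± 0.12 (SE; limma adjusted p = 0.00143), called in 23 of 23 alternative settings. Cox7b, one of the small subunits, stood at 866, 873 and 867 TPM in the sham vehicle libraries, 862, 939 and 945 in sham prednisone, 684, 762 and 657 in MI vehicle and 1096, 1354 and 983 in MI prednisone. MI vehicle was lowest and MI prednisone highest without overlap, at 0.70 ± 0.12 (SE; limma adjusted p = 0.00196). On the log2(TPM + 1) scale the muscle isoform Cox7a1, given above, had the largest rise, at 0.79 ± 0.13 (SE; limma adjusted p = 0.00158). As a ratio of mean TPM, which the added 1 does not lower, Cox4i2 rose more, 1.77-fold against 1.74-fold. The MI prednisone libraries of Cox7a1 overlapped with those of the sham groups. Cox6c rose by 0.68, Cox7c by 0.47 and Cox8b by 0.57.

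In complex V, Atp5b (chromosome 10, 128083273 to 128090391, plus strand), the catalytic beta subunit, stood at 2795, 2853 and 2893 TPM in the sham vehicle libraries, 2822, 2907 and 3294 in sham prednisone, 2353, 2579 and 2373 in MI vehicle and 3662, 4666 and 3244 in MI prednisone. Its summed value rose by 0.65 ± 0.13 (SE; limma adjusted p = 0.00392), though its coding transcripts alone were at -0.34 on the values as deposited and at 0.12, not called, after rescaling. Atp5a1, the alpha subunit that alternates with beta in the head, stood at 1396, 1481 and 1480.3 TPM in the sham vehicle libraries, 1507, 1542 and 1705 in sham prednisone, 1321, 1299 and 1173 in MI vehicle and 1151, 1195 and 1243 in MI prednisone. The MI groups overlapped, at -0.08 ± 0.09 (SE; limma adjusted p = 0.496), and both lay below sham. Atp5h (chromosome 11, 115415689 to 115419962, minus strand), subunit d of the stalk, stood at 1247, 1234 and 1256 TPM in the sham vehicle libraries, 1265, 1410.3 and 1578 in sham prednisone, 1065, 1126 and 1131 in MI vehicle and 1573, 1848 and 1502 in MI prednisone. MI prednisone overlapped with sham prednisone and lay above MI vehicle throughout, at 0.56 ± 0.11 (SE; limma adjusted p = 0.00326).

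The c-ring genes encode the same mature protein with different import sequences. Atp5g1 stood at 1534, 1598 and 1704 TPM in the sham vehicle libraries, 1615, 1707 and 1898 in sham prednisone, 1455, 1512 and 1189 in MI vehicle and 1919, 2105 and 1804 in MI prednisone. Atp5g3 stood at 1665, 1738 and 1733 TPM in the sham vehicle libraries, 1606, 1654 and 1833 in sham prednisone, 1490.3, 1467 and 1257 in MI vehicle and 1750.4, 1952 and 1689 in MI prednisone. MI vehicle was the lowest group for both. With prednisone in MI, Atp5g1 rose by 0.49 ± 0.11 (SE; limma adjusted p = 0.00787) and Atp5g3 rose by 0.36 ± 0.10 (SE; limma adjusted p = 0.0185). Atp5g2 was far lower and more variable: it stood at 11.8, 14.9 and 20.3 TPM in the sham vehicle libraries, 18.6, 12.6 and 17.6 in sham prednisone, 10.3, 9.16 and 13.9 in MI vehicle and 19.5, 23.6 and 12.4 in MI prednisone. The MI groups overlapped, at 0.66 ± 0.26 (SE; limma adjusted p = 0.0628). The other called rises of complex V ran from 0.23 for Atp5c1 to 0.61 for Atp5k, and included Atp5d (0.30), Atp5f1 (0.24, but -0.33 and called lower from coding transcripts alone, and 0.13, not called, from these after rescaling), Atp5o (0.44), Atp5l (0.48), Atp5e (0.52), Atp5j2 (0.56) and Atp5j (0.58). Atp5s (-0.10) and Atp5sl (0.11) were not called.

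**Figure D2:**
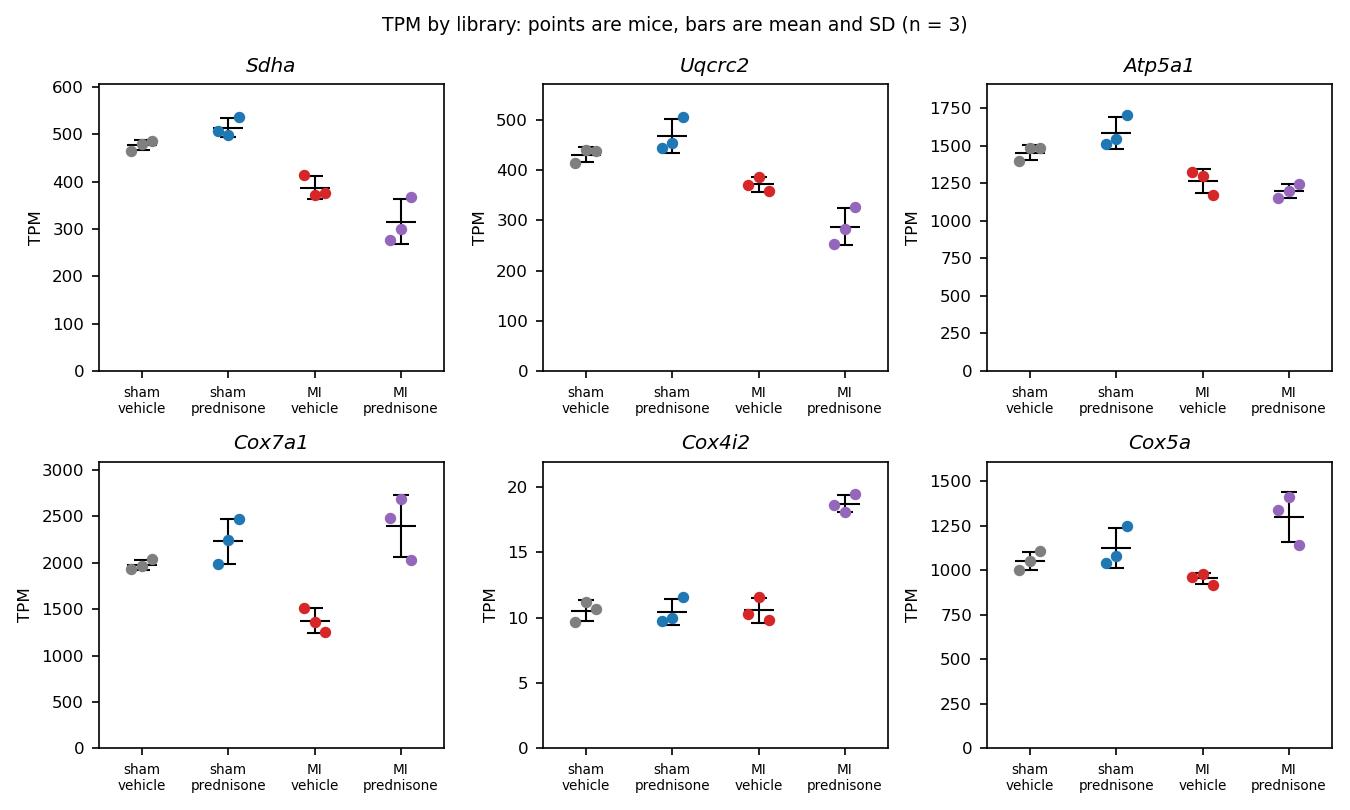
TPM (y axis, from 0) of 6 genes in the 4 groups (x axis), with a point for each mouse and bars for mean and SD (n = 3). Sdha and Uqcrc2 are lowest in MI prednisone (Sdha 276 to 368 TPM) on the values as deposited, a direction that does not hold against MI vehicle after median-ratio rescaling, Atp5a1 is low in both MI groups, Cox7a1 is lowest in MI vehicle, and Cox4i2 stands at 18.1 to 19.4 TPM in MI prednisone, above all other libraries.

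Markers of other cell types moved here too. Between MI prednisone and MI vehicle, calls were 0 higher and 5 lower of 6 for fibroblasts, 0 higher and 4 lower of 6 for macrophages, 5 higher and 0 lower of 10 for ventricular cardiomyocytes and 3 higher and 0 lower of 6 for atrial cardiomyocytes, where 2.5% of all genes were called higher and 34.9% lower. After rescaling they were 0 and 5, 0 and 3, 7 and 0, and 4 and 0, against 14.6% and 14.2% of all genes. The ventricular markers did not all move together. On the values as deposited Pln, Ryr2 and Actc1 were lower on average in MI prednisone than in MI vehicle, with overlap and without a call. Pln was at 1644 to 2334 TPM in MI vehicle and 1343 to 2048 in MI prednisone. Summed atrial markers were 856 to 2515 TPM in sham vehicle, 2001 to 2711 in sham prednisone, 2815 to 4124 in MI vehicle and 4362 to 6194 in MI prednisone, with none at 0. Most of the MI vehicle sum was Nppa, at 2050 to 3228 TPM there against 478 to 1333 in sham vehicle. Myl7 did not share that rise, at 195 to 619 TPM in sham vehicle, 64.0 to 450 in MI vehicle and 793 to 1036 in MI prednisone. Myl4 and Sln were likewise lower on average in MI vehicle than in sham vehicle. Summed endothelial markers were 702 to 919 TPM in sham vehicle, 707 to 836 in sham prednisone, 854 to 1734 in MI vehicle and 899 to 1760.4 in MI prednisone. Most of this sum was Fabp4, highest in MI vehicle 3 (1470 TPM) and MI prednisone 2 (1583). Single markers went different ways. From sham vehicle to MI prednisone, Cdh5 went from 41.5 to 42.2 TPM to 29.6 to 38.6, and Vwf from 17.5 to 26.7 TPM to 41.5 to 63.1. Summed smooth muscle markers were 71.1 to 73.0 TPM in sham vehicle, 69.8 to 72.4 in sham prednisone, 91.8 to 164 in MI vehicle and 74.9 to 86.1 in MI prednisone. Erythroid markers were called in no comparison of MI with sham or of prednisone with vehicle by limma (0, 0, 0 and 0 of 5 at an unadjusted p under 0.05), and summed to 26712 to 98114 TPM. Skeletal muscle markers summed to 91.6 to 178 TPM in sham vehicle, 113 to 149 in sham prednisone, 309 to 611 in MI vehicle and 319.9 to 498 in MI prednisone, nearly all of it Acta1, which cardiomyocytes also express, while Myh4 was at 0 in 4 libraries and stayed under 1 TPM in the rest. The part of these cell types in the changes of the respiratory genes was not tested.

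The prednisone difference in MI went with transcript length. Length is the TPM-weighted mean over a gene's transcripts. Of 32 genes under 1000 bases, 26 were called higher and 0 lower, with a median of 0.51. Of 17 genes of 1000 bases or more, 3 were called higher (Atp5b, Atp5c1 and Atp5f1) and 2 lower, with a median of 0.10. Cox7a1, at 0.79, has 395 bases and Sdha, at -0.31, has 2817, while the longer Sdhaf2 and Sdhaf3, of 2981 and 4011 bases, were not called. Across the 49 genes the Spearman correlation of change with length was -0.61 in MI and 0.19 in sham. Over 13122 genes of all kinds it was -0.40 and 0.20. These are descriptions across genes of the same libraries, which are not independent replicates.

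Against the sham vehicle mean, the MI prednisone libraries had correlations with length over the 49 genes of -0.48, -0.60 and -0.29, while the MI vehicle libraries gave 0.02, 0.21 and 0.26. The sham vehicle libraries, which make up that mean, gave -0.02, -0.33 and 0.42, and the sham prednisone libraries 0.47, -0.09 and 0.00265, so that MI prednisone 1 and 2 lay outside the range of the sham libraries and MI prednisone 3 within it. MI prednisone 3 had the weakest relation of its group and also the smallest median over the 49 genes, 0.07 against 0.28 and 0.43. With the trend on length among all genes removed from each library by a loess curve, 13 genes were called higher and 0 lower, with a median of 0.56, where 8.76% of all genes were called higher and 7.69% lower. The curve did not remove the relation among the 49 genes in MI, where their correlation with length was then -0.55. In sham it turned a correlation of 0.19 into one of -0.55, so the correction did not free these genes of length in either. The 13 genes called higher were Atp5b (0.90), Atp5g2 (0.76), Atp5h (0.69), Atp5j (0.69), Atp5j2 (0.67), Cox4i2 (0.87), Cox5b (0.89), Cox7a1 (1.05), Cox7a2 (0.75), Cox7b (0.79), Sdhaf1 (0.64), Uqcrh (0.70) and Uqcrq (0.82). Sdha then stood at 0.18 and Uqcrc2 at -0.06, neither called.

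**Figure D3:**
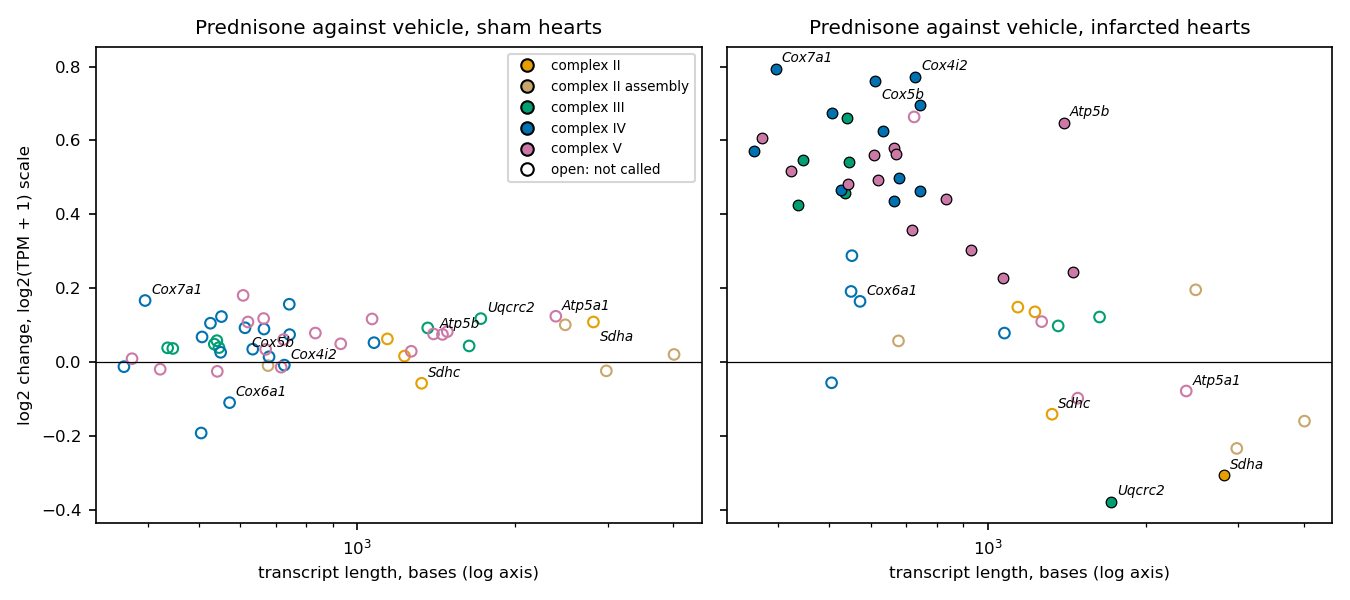
Change with prednisone (y axis, log2(TPM + 1) scale) against transcript length in bases (x axis, log scale) for the 49 genes, in sham hearts (left) and infarcted hearts (right), coloured by complex and filled where called. In MI the genes under 1000 bases have a median of 0.51 and the longer ones of 0.10, with Uqcrc2 (-0.38) and Sdha (-0.31) lowest, at 0.08 and 0.15 after rescaling, while in sham hearts no gene is called.

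Single transcripts of these genes moved in opposite directions. The table lists 211 transcripts of the 51 genes, of which 177 from 49 genes were tested with limma among 27769 transcripts, a step chosen after the data had been seen. In MI, prednisone against vehicle, 54 were called higher and 8 lower, where 5.92% and 27.1% of all tested transcripts were. After rescaling they were 87 and 4, against 13.1% and 13.6%. Without MI vehicle 3 they were 45 and 8, for which the shares of all transcripts are not given here. Transcripts were placed along the most abundant coding transcript of their gene. Those spanning at most 60% of it, with at least 50% of their own bases in it and a mean of at least 1 TPM, were taken as partial. Of 20 partial transcripts in the 3' part, from 13 genes, 11 were called higher and 0 lower, with a median of 1.09. Of 20 in the 5' part, from 15 genes, 2 were called higher and 3 lower, with a median of 0.05. After rescaling the counts were 14 and 0 in the 3' part (median 1.40) and 3 and 2 in the 5' part (median 0.36). Partial transcripts of other genes were not placed in this way. Whether the difference between the 3' and 5' parts is particular to these genes or runs through whole libraries was not tested. Reads of overlapping transcripts are shared out by estimation, so each transcript's value is less certain than the gene's sum.

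Atp5b shows this in full. Its coding transcript ENSMUST00000026459.5, of 1916 bases, stood at 2021, 2136 and 2126 TPM in the sham vehicle libraries, 2172, 2224 and 2466 in sham prednisone, 1945, 1947 and 1768 in MI vehicle and 1292, 1439.8 and 1764 in MI prednisone. MI prednisone was the lowest group, and the change from MI vehicle was -0.34 ± 0.12 (SE; limma adjusted p = 0.0443), but 0.12 and not called after rescaling. A processed transcript of 478 bases, ENSMUST00000126751.1, which covers 70.0% to 93.8% of the coding transcript's length and has no annotated coding sequence, stood at 679.6, 416 and 579 TPM in the sham vehicle libraries, 507, 507 and 671 in sham prednisone, 338, 513 and 513 in MI vehicle and 2119, 2803 and 1423 in MI prednisone. Every MI prednisone library was above all others, at 2.19 ± 0.27 (SE; limma adjusted p = 0.000313), and at 2.65 after rescaling. A further one, ENSMUST00000127439.1, of 343 bases at the 5' end (1.72% to 19.0%), stood at 76.6, 283 and 174 TPM in the sham vehicle libraries, 129, 159 and 135 in sham prednisone, 55.8, 103 and 80.2 in MI vehicle and 20.6, 18.7 and 30.0 in MI prednisone, a change of -1.73 ± 0.39 (SE; limma adjusted p = 0.00755), and of -1.28, still called, after rescaling. The coding transcript thus made up 73.6%, 76.1%, 77.6% and 40.2% of Atp5b in sham vehicle, sham prednisone, MI vehicle and MI prednisone.

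Atp5f1, subunit b of the stalk, divided in the same way. Its coding transcript of 1604 bases stood at 413, 452 and 461 TPM in the sham vehicle libraries, 431, 439 and 485 in sham prednisone, 437, 389.9 and 347 in MI vehicle and 270.1, 306 and 355 in MI prednisone, a change of -0.34 ± 0.12 (SE; limma adjusted p = 0.0554), and of 0.12 after rescaling. A transcript of 1311 bases annotated for nonsense-mediated decay, which lacks the 5' end (28.4% to 99.8%), stood at 179, 154 and 159.8 TPM in the sham vehicle libraries, 165, 178 and 186 in sham prednisone, 80.9, 124 and 145 in MI vehicle and 313, 299 and 287 in MI prednisone. It was highest in all 3 MI prednisone hearts, at 1.39 ± 0.18 (SE; limma adjusted p = 0.000385), and at 1.85 after rescaling. Restricted to coding transcripts, a setting also added after the data were seen, Atp5b was at -0.34 and Atp5f1 at -0.33, both called lower, but at 0.12 and 0.13, neither called, after rescaling.

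Uqcrc2 differed. Its coding transcript of 1896 bases stood at 341, 365 and 366 TPM in the sham vehicle libraries, 345, 357 and 388 in sham prednisone, 323, 312 and 283 in MI vehicle and 249.7, 274 and 316 in MI prednisone, and the change of -0.13 ± 0.11 (SE; limma adjusted p = 0.358) was not called. A processed transcript of 832 bases in the 5' part (7.75% to 47.4%) stood at 65.9, 67.6 and 70.2 TPM in the sham vehicle libraries, 92.2, 91.5 and 113 in sham prednisone, 46.3, 70.6 and 70.3 in MI vehicle and 0, 0 and 3.84 in MI prednisone. It was listed at 0 in 2 of the 3 MI prednisone libraries, and the fall, on the log2(TPM + 1) scale, was -5.20 ± 0.48 (SE; limma adjusted p = 7.9e-05), and -4.83 after rescaling. From coding transcripts alone Uqcrc2 was at -0.13, and at 0.33 after rescaling, and was called under neither. Sdha was carried almost wholly by its coding transcript of 2900 bases, which stood at 452, 464 and 472 TPM in the sham vehicle libraries, 489, 483 and 524 in sham prednisone, 404, 364 and 361 in MI vehicle and 256, 272 and 355 in MI prednisone, a fall of -0.37 ± 0.12 (SE; limma adjusted p = 0.0374) that was at 0.09 and not called after rescaling.

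**Figure D4:**
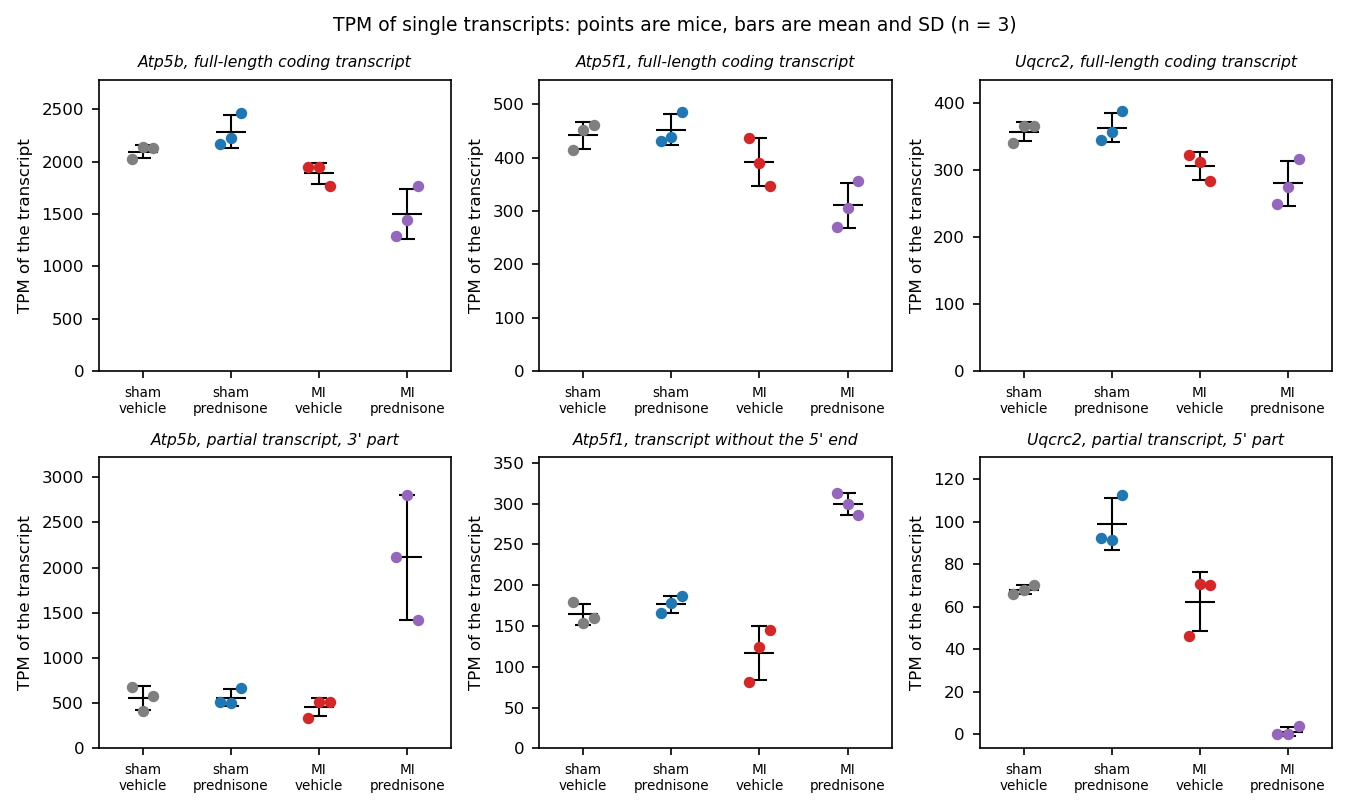
TPM (y axis) of single transcripts of Atp5b, Atp5f1 and Uqcrc2 in the 4 groups (x axis), with a point for each mouse and bars for mean and SD (n = 3). The upper panels show the full-length coding transcripts, lowest on average in MI prednisone on the values as deposited (against MI vehicle they are at 0.12, 0.12 and 0.33 after rescaling, none called), and the lower panels the Atp5b partial transcript (338 to 679.6 TPM outside MI prednisone, 1423 to 2803 within it), the Atp5f1 transcript without the 5' end, and the Uqcrc2 5' transcript, at 0, 0 and 3.84 TPM in MI prednisone.

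In other genes much of the summed difference lay in transcripts that do not code for the full protein. Atp5j rose by 0.58 as a sum and was at 0.11, not called, from coding transcripts (0.57 and called after rescaling), while a retained-intron transcript of 526 bases rose by 1.11 ± 0.15 (SE; limma adjusted p = 0.000581). Cox7b was at 0.25 from its coding transcript, not called (0.71 and called after rescaling), with a retained-intron transcript of 526 bases at 1.15 ± 0.16 (SE; limma adjusted p = 0.000675). Cox5b kept its call from coding transcripts, at 0.36, with a processed transcript of 362 bases at 1.14 ± 0.17 (SE; limma adjusted p = 0.000981). Cox7a2 kept it too, at 0.40. Cox6b1 went the other way: its coding transcript rose by 0.59 ± 0.11 (SE; limma adjusted p = 0.00303), its retained-intron transcript of 369 bases fell by 0.84 (-0.38, not called, after rescaling) and its sum was not called. With coding transcripts alone, 27 of the 49 genes were called higher and 3 lower, against 2.02% and 46% of all genes. From these after rescaling 39 were called higher and 0 lower, against 12.3% and 19.1%.

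The comparison of MI with sham among prednisone-treated mice asked what infarction changed under treatment. It shares the MI prednisone libraries with the comparison above, so their results are not independent. Of the 49 genes, 2 were called higher and 4 lower, where 2.73% of all genes were called higher and 14.1% lower, and the median was 0.16 against -0.06. The falls were in Sdha (-0.72 ± 0.11 SE, limma adjusted p = 0.00219), Uqcrc2 (-0.71 ± 0.10 SE, limma adjusted p = 0.00213), Sdhc (-0.44 ± 0.10 SE, limma adjusted p = 0.0119) and Atp5a1 (-0.40 ± 0.09 SE, limma adjusted p = 0.0110). All 4 have 1327 bases or more, and Sdha and Uqcrc2 kept their calls after rescaling (-0.61 and -0.60), while Sdhc (-0.34) and Atp5a1 (-0.30) lost them. The rises were in Cox4i2 (0.79 ± 0.11 SE, limma adjusted p = 0.00202) and Cox5b (0.52 ± 0.12 SE, limma adjusted p = 0.0115), and Cox5b was at 0.07 from coding transcripts alone.

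Groups did not overlap in 10 genes that were higher in MI (background 12.9%) and in 7 that were lower (background 32.2%). Rescaling gave 6 higher and 2 lower (11.7% and 14.3% of all genes), adding Cox6a1 (1.04), Cox8a (0.73), Cox7a2l (0.35) and Sdhaf1 (0.42) to the rises. The length correction left Cox6a1 higher and Uqcrc2 lower (0.63 and -0.77), against 4.93% and 7.98% of all genes. Coding transcripts alone gave 4 higher and 6 lower (2.12% and 18.4% of all genes), with Atp5b (-0.62) and Atp5f1 (-0.54) among the falls, though after rescaling these were at -0.51 and -0.43 and not called. Spearman's correlation of change with length over the 49 genes was -0.58, against 0.20 for MI against sham in vehicle mice. Without MI vehicle 3, which enters only the spread, calls were 7 higher and 4 lower, and without MI prednisone 3 they were 14 and 4. For these fits the shares of all genes called are not given here, so the counts cannot be set against them.

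Infarcted hearts with prednisone were also set against sham hearts with vehicle, to ask how far treated hearts stood from untreated uninjured ones. This comparison shares its libraries with those above. Of the 49 genes, 4 were called higher and 3 lower, where 3.59% and 8.41% of all genes were, with a median of 0.27 against -0.00. The rises were in Cox4i2 (0.78 ± 0.11 SE, limma adjusted p = 0.00269), Cox5b (0.61 ± 0.12 SE, limma adjusted p = 0.00839), Atp5h (0.39 ± 0.11 SE, limma adjusted p = 0.0361) and Uqcrb (0.32 ± 0.09 SE, limma adjusted p = 0.0381). The falls were in Sdha (-0.61 ± 0.11 SE, limma adjusted p = 0.00669), Uqcrc2 (-0.59 ± 0.10 SE, limma adjusted p = 0.00658) and Sdhc (-0.50 ± 0.10 SE, limma adjusted p = 0.0103). In 23 genes all MI prednisone libraries exceeded all sham vehicle libraries (background 17%), and in 4 all lay below (background 23.8%). Rescaling gave 5 and 2 (10.4% and 12.3% of all genes), of which Sdha (-0.59), Uqcrc2 (-0.57), Cox4i2 (0.80) and Cox5b (0.63) were also called on the values as deposited. The length correction left Cox8a (0.40) and Uqcrc2 (-0.69), against 5.74% and 6.79% of all genes, and coding transcripts alone gave 4 higher and 6 lower, against 2.99% and 11.5%. From coding transcripts after rescaling 4 were called higher and 1 lower, with no share of all genes given here. Without MI prednisone 3 the counts were 23 higher and 4 lower, without MI vehicle 3 they were 11 and 4, and without sham vehicle 3 or MI prednisone 1 they were 2 and 2. Shares of all genes called with a library left out are not given here.

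Whether prednisone acted differently after MI and after sham surgery was tested as the difference between both effects. On this test 13 of the 49 genes had a higher effect in MI and 1 a lower one, where 0.54% and 20.7% of all genes did, with a median of 0.36 against -0.48. The largest were Cox4i2 (0.78 ± 0.16 SE, limma adjusted p = 0.0111), Cox5b (0.67 ± 0.16 SE, limma adjusted p = 0.0188) and Cox7a1 (0.63 ± 0.18 SE, limma adjusted p = 0.0315). The lower one was Uqcrc2 (-0.50 ± 0.15 SE, limma adjusted p = 0.0364), which was at 0.05 and not called after rescaling. No complex II gene was called, with Sdha at -0.42 ± 0.15 (SE; limma adjusted p = 0.0713). Rescaling gave 25 higher and 0 lower, where 5.12% and 4.93% of all genes were called. After the length correction none was called by limma, with 11 at an unadjusted p under 0.05, and 0.892% and 1.14% of all genes were called. Coding transcripts alone gave 12 and 0, against 0.544% and 30.6%. Leaving out single libraries gave between 1 (without sham vehicle 1, sham vehicle 3 or sham prednisone 1) and 22 calls (without MI prednisone 3), with no shares of all genes given here.

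Complex IV subunits 6A, 7A and 8 each have a form of heart and muscle (Cox6a2, Cox7a1 and Cox8b) and a form of most other tissues (Cox6a1, Cox7a2 and Cox8a). In these hearts the muscle forms dominated in every library, and the balance of subunits 6A and 8 moved towards the general forms after MI. Cox6a1 stood at 144, 164 and 138 TPM in the sham vehicle libraries, 128, 128 and 158 in sham prednisone, 177, 182 and 397 in MI vehicle and 209.6, 390.1 and 221 in MI prednisone. Its highest libraries were MI vehicle 3 and MI prednisone 2. Cox6a2 stood at 1745, 1769 and 1849 TPM in the sham vehicle libraries, 1649, 1767 and 2017 in sham prednisone, 1568, 1522 and 1149 in MI vehicle and 1926, 2128 and 1889 in MI prednisone. Here MI vehicle 3 was the lowest of all. Cox8a stood at 184, 231 and 196 TPM in the sham vehicle libraries, 196, 199.9 and 225 in sham prednisone, 233, 240.3 and 385 in MI vehicle and 303, 409 and 259.6 in MI prednisone, again highest in MI vehicle 3 and MI prednisone 2. Cox8b stood at 1497, 1753 and 1575 TPM in the sham vehicle libraries, 1515, 1556 and 1708 in sham prednisone, 1486, 1398 and 1267 in MI vehicle and 1944, 2466 and 1802 in MI prednisone. Cox7a2 stood at 501, 499 and 481 TPM in the sham vehicle libraries, 464, 510.1 and 545 in sham prednisone, 383, 406 and 397 in MI vehicle and 629, 701 and 516 in MI prednisone. Like the muscle form Cox7a1, it was lowest in MI vehicle and highest on average in MI prednisone.

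Promoters are shown for Cox6a1, for both forms of subunit 8 and for Cox7a1. They are RefSeq sequences on GRCm38.p6, from 250 bases before to 50 after the start, 5′ to 3′, with motif matches in capitals: the NRF1 motif in Cox6a1 and ACTTCCGG (CCGGAAGT of ETS factors, on the other strand) at 2 places in Cox8a. Cox6a1 lies at chr5:115348909-115349208, minus strand, Cox8a at chr19:7217567-7217866, minus strand, Cox7a1 at chr7:30183921-30184220, plus strand and Cox8b at chr7:140900397-140900696, minus strand.
Cox6a1: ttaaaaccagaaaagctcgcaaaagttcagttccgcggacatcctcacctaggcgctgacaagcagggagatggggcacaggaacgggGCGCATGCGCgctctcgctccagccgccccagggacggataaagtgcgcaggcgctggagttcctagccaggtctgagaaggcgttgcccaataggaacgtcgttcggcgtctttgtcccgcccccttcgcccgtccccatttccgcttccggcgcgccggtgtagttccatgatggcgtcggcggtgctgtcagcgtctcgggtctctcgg
Cox8a: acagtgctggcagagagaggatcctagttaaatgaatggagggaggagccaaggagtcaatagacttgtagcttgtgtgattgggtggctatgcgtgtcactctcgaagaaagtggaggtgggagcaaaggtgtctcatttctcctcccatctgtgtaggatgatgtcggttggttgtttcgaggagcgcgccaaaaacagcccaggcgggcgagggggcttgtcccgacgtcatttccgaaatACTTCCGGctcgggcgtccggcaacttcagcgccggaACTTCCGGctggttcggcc
Cox7a1: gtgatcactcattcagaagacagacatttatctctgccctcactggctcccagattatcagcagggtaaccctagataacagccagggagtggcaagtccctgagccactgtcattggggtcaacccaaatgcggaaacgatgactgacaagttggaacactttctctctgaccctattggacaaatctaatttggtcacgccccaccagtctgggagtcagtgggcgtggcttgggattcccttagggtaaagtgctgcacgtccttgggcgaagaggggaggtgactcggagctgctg
Cox8b: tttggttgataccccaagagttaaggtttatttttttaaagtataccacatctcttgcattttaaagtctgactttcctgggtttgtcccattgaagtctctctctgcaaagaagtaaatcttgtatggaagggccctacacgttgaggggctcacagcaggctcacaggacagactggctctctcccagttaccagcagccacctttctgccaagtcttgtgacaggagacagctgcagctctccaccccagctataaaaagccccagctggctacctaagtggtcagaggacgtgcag
The motifs searched on both strands were the palindromic NRF1 motif of 10 letters, which stands in capitals in Cox6a1, CCGGAAGT (ETS), TCAAGGTCA (ERR) and AAGATGGC (YY1), which do not contain each other. Promoters were found for 41 of the 51 genes, matched by symbol or older symbol. The NRF1 letters stood in 4 of them (9.76%, against 1.07% of 27025 genes): Atp5g2, Atp5k, Cox6a1 and Uqcrc1. The ETS letters stood in 4 (9.76% against 4.31%): Atp5h, Cox8a, Uqcr11 and Uqcrh. The ERR letters stood in 2 (4.88% against 0.466%): Atp5g3 and Sdhd. The YY1 letters stood in 4 (9.76% against 3.19%): Atp5f1, Atp5j, Atp5j2 and Atp5sl. Any of the 4 motifs stood in 14 (34.1% against 8.67%). The promoters of Cox7a1 and Cox8b held none of these letters, and neither did that of the general form Cox7a2. For Cox6a2 no promoter was found. A match describes the sequence and is not a measured binding site.

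The ratio of 2 genes in a library hardly depends on how the library is scaled. Ratios are given here as ratios of TPM, and were tested as log2 ratios of (TPM + 1). The ratio of Cox6a2 to Cox6a1 was 12.1, 10.8 and 13.4 in the sham vehicle libraries, 12.8, 13.8 and 12.8 in sham prednisone, 8.86, 8.37 and 2.89 in MI vehicle and 9.19, 5.45 and 8.56 in MI prednisone. Both MI groups lay below both sham groups, and MI vehicle 3 was the lowest. The difference of MI from sham within treatment was -0.90 (log2; two-sided exact permutation p = 0.00500, adjusted p = 0.0150). For Cox8b to Cox8a it was 8.15, 7.61 and 8.02 in the sham vehicle libraries, 7.75, 7.78 and 7.60 in sham prednisone, 6.37, 5.82 and 3.29 in MI vehicle and 6.41, 6.03 and 6.94 in MI prednisone. MI was again below sham in every library, at -0.46 (log2; two-sided exact permutation p = 0.00500, adjusted p = 0.0150). The ratio of Cox7a1 to Cox7a2 was 3.87, 3.94 and 4.24 in the sham vehicle libraries, 4.27, 4.39 and 4.53 in sham prednisone, 3.95, 3.36 and 3.16 in MI vehicle and 3.94, 3.83 and 3.93 in MI prednisone. The groups overlapped here, and MI differed from sham by -0.19 (log2; two-sided exact permutation p = 0.0150, adjusted p = 0.0300). This call was lost with the most abundant transcript of each gene (-0.0939, exact permutation adjusted p = 0.4125) and without sham vehicle 2 (adjusted p = 0.05). The smallest p these tests can give is 0.005, and p-values were adjusted over 6 tests.

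Prednisone differed from vehicle within surgery by 0.15 (log2; two-sided exact permutation p = 0.0250, adjusted p = 0.0375) for Cox7a1 to Cox7a2. The differences were 0.23 (log2; two-sided exact permutation p = 0.460, adjusted p = 0.460) for Cox6a2 to Cox6a1 and 0.17 (log2; two-sided exact permutation p = 0.385, adjusted p = 0.460) for Cox8b to Cox8a. The difference of Cox7a1 to Cox7a2 was lost (adjusted p of 0.0525 or more) when any 1 of 10 libraries was left out. Without MI vehicle 3 the MI differences of Cox6a2 to Cox6a1 and of Cox8b to Cox8a were -0.64 and -0.32.

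Summed markers of fat were highest in the 2 libraries that were highest in Cox6a1 and Cox8a. Calls for brown adipocyte markers were 0 higher and 0 lower of 3 for MI against sham in vehicle mice and 1 higher and 0 lower of 3 in prednisone mice, and for adipocyte markers 0 higher and 0 lower of 4 and 0 higher and 0 lower of 4. Brown adipocyte markers (Ucp1, Cidea and Elovl3) summed to 19.3 to 34.6 TPM in sham vehicle, 17.7 to 23.7 in sham prednisone, 23.9 to 183 in MI vehicle and 51.3 to 200.0 in MI prednisone. The highest libraries were MI vehicle 3 (183) and MI prednisone 2 (200.0), the same that were highest in Cox6a1 and Cox8a. Ucp1 was at 98.6 and 88.7 TPM in them, and Elovl3 was at 0 in 3 libraries. Summed adipocyte markers (Adipoq, Plin1, Cfd and Lep) were 15.4 to 310.1 TPM in sham vehicle, 126 to 139.7 in sham prednisone, 15.4 to 1359 in MI vehicle and 231 to 777 in MI prednisone, with 1359 in MI vehicle 3 and 777 in MI prednisone 2. Their part in the levels of Cox6a1 and Cox8a was not tested.

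**Figure D5:**
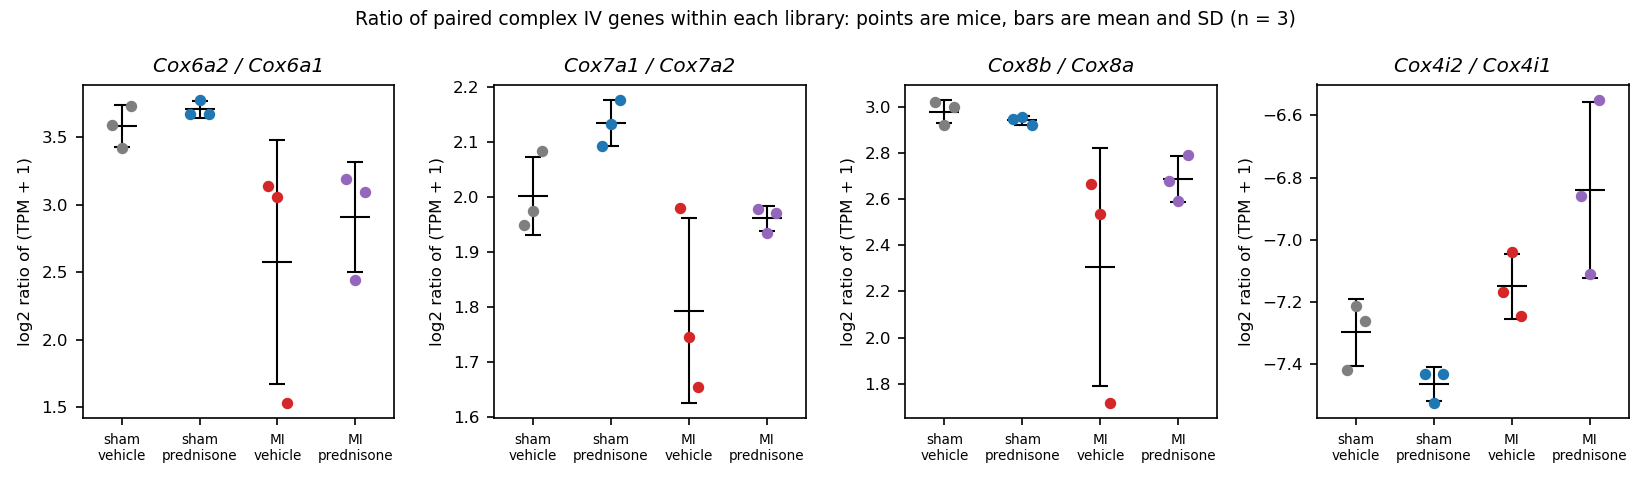
Log2 ratio of (TPM + 1) of paired complex IV genes within each library (y axis, not from 0) in the 4 groups (x axis), with a point for each mouse and bars for mean and SD (n = 3). The ratios of Cox6a2 to Cox6a1 and of Cox8b to Cox8a are lower in both MI groups than in both sham groups, with MI vehicle 3 lowest at 1.53 and 1.72.

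The testis isoforms were low or listed at 0. Cox6b1, the general form of subunit 6B, stood at 993, 1150.2 and 1024 TPM in the sham vehicle libraries, 1041, 1165 and 1247 in sham prednisone, 1039, 975 and 1016 in MI vehicle and 1276, 1332 and 1103 in MI prednisone. Cox6b2, known as its testis form, stood at 5.25, 5.37 and 4.37 TPM in the sham vehicle libraries, 4.97, 3.54 and 4.29 in sham prednisone, 5.91, 4.13 and 6.45 in MI vehicle and 4.49, 6.82 and 4.47 in MI prednisone. Neither was called in any comparison on summed values. Cox7b2, a testis form of Cox7b, lay between 0 and 0.850 TPM, and Cox8c, a testis form of subunit 8, was listed at 0 in all 12 libraries. Cox7a2l, the supercomplex factor, stood at 209, 226 and 218 TPM in the sham vehicle libraries, 214, 224 and 239 in sham prednisone, 218, 254 and 290.1 in MI vehicle and 282, 289.6 and 232 in MI prednisone, and was not called in any comparison on these values, but rose by 0.54 with prednisone in MI after rescaling.

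Other genes of the same pathway were counted from lists. For prednisone against vehicle in MI, the 37 nuclear genes with complex I symbols, Ndufa4 among them, had 27 called higher and 0 lower. Their median was 0.41, where the 49 genes had 0.44 and 2.5% of all genes were called higher and 34.9% lower. The 78 mitochondrial ribosomal proteins had 17 and 2, with a median of 0.12. Of 24 tested factors of complex IV assembly and function, 4 were called higher and 5 lower. The share called lower was below that of all genes, where 2.5% were called higher and 34.9% lower. Ndufa4, a subunit of complex IV that is counted in the complex I list too, rose by 0.70 and the copper chaperone Cox17 by 0.53. Taco1, a translational activator of mt-Co1, fell by 0.95, Lrpprc, which stabilises mitochondrial mRNA, by 0.50 and Cox15, a heme A synthase, by 0.81, on the log2 scale, and after rescaling these were -0.51, -0.05 and -0.40, none called. Higd1a (0.52) and Cox20 (0.28) were the other rises, and Coa5 (-0.80) and Coa7 (-0.84) the other falls, at -0.35 and -0.43 and not called after rescaling, where the list had 11 higher and 0 lower.

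Of 7 genes of complex V assembly and regulation, 2 rose, Usmg5 (0.53) and 2010107E04Rik (0.55), both small subunits of ATP synthase in current naming. Atpif1, the inhibitor of ATP synthase, was instead called higher in MI than in sham, by 0.61 in vehicle and 0.75 in prednisone mice (0.17, not called, and 0.86 after rescaling). Of 8 electron carrier and remaining complex III genes, Uqcc2 rose (0.44) and Uqcc1 fell (-0.51, and -0.05, not called, after rescaling), both assembly factors. Of 13 coenzyme Q genes, Coq7 (0.35) and Coq10a (0.32) rose, and Coq10b (-1.22), Coq8a (-0.73) and Coq3 (-0.32) fell, at -0.79, -0.27 and 0.11 after rescaling, of which the first alone was called. Coq10b also fell with prednisone in sham hearts, with a change of -0.92 (limma adjusted p = 0.0437, but 0.113 after rescaling). None of the 6 mitochondrially encoded subunits of complexes III to V was called with prednisone in MI by limma, with 1 at an unadjusted p under 0.05. The mitochondrially encoded subunit mt-Co1 of complex IV was called lower in MI than in sham among prednisone mice, with a change of -0.68, and was at -0.57, not called, after rescaling.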

How the data were processed

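RNA of 12 mouse hearts was sequenced from stranded mRNA libraries, per the labels' protocols. The submitters' processing notes name Trimmomatic, HISAT2, kallisto and mm10, without versions or roles. The authors deposited TPM for 105129 transcripts of 33641 symbols in each of the 12 samples. Each sample sums to 1000000, so depth is unknown, no counting error can be given, and a rise in some RNAs lowers the TPM of others. Near-identical pseudogenes may share reads with these genes, and their values are uncertain.

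Transcripts were summed by symbol. The 13158 genes that reached 1 TPM in 3 or more samples were tested on log2(TPM + 1) with limma 3.58.1 in R 4.3.3 (group means, trended eBayes, Benjamini-Hochberg over all genes, adjusted p under 0.05), after a run on simulated data. This scale understates changes of low genes. Isoform ratios had exact permutation tests over 400 arrangements. The genes and lists were chosen with earlier results of these data known. Groups came from sample titles. Named genes were catalytic subunits and isoforms, plus up to 3 largest called rises and falls per comparison. Others were named after their values were seen. Lengths, transcript types and coordinates came from GENCODE M21 (GRCm38), by identifier without version (98.6% of transcripts). Uqcrc1 is listed under pairs of transcripts with identical values, which were summed. Alternatives were median-ratio rescaling, no filter, no trend, a pseudocount of 0.1, a replicate block, only the groups compared, a loess (span 0.5) correction for transcript length, alone and with the block, the most abundant transcript, and each library left out. Coding transcripts alone, with and without rescaling, and single transcripts were added after seeing the data. P-values measure the spread between 3 mice per group.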

Additional observations from a re-analysis of the deposited data

Results flagged for a closer look

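The prednisone effect differed between infarcted and sham hearts, by limma's test of the difference, in 14 of the 49 genes. Of all tested genes, 0.54% were called higher and 20.7% lower by the same test. The values below are log2 differences of the effect in MI minus that in sham. In complex IV they were 0.78 for Cox4i2, 0.67 for Cox5b, 0.63 for Cox7a1, 0.62 for Cox7b, 0.61 for Cox6c, 0.59 for Cox7a2 and 0.58 for Cox8b. In complex V they were 0.57 for Atp5b, 0.53 for Atp5j2, 0.51 for Atp5l and 0.46 for Atp5j. In complex III they were 0.50 for Uqcrh, 0.41 for Uqcrb and -0.50 for Uqcrc2. Behind the extremes, Cox4i2 had effects of 0.77 in MI and -0.01 in sham, and Uqcrc2 of -0.38 in MI and 0.12 in sham. The difference for Uqcrc2 was not called after rescaling. After the transcript-length correction none of the 14 was called, with Cox4i2 at 0.88 and Uqcrc2 at -0.14. With coding transcripts alone Atp5b turned to -0.47 and was not called (0.08, not called, after rescaling), and Atp5j, Cox5b, Cox7a2, Cox7b and Uqcrc2 were not called either.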

How the results depend on the processing

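Values are counts of the 49 genes called by limma, against 3 (MI against sham, vehicle), 6 (the same, prednisone), 31 (prednisone in MI), 0 (prednisone in sham), 14 (difference of the prednisone effects) and 7 (MI prednisone against sham vehicle). Shares over all genes are given above for the main fit, rescaling, the length correction and coding transcripts alone, and not for every setting. The length correction gave 7, 2, 13, 0, 0 and 2, and with the replicate block as well 0, 1, 6, 0, 0 and 0. The replicate block alone gave 0 for MI against sham in vehicle mice and 8 for the difference of effects, and changed no other count by over 1.5 times. Rescaling gave 21 for MI against sham in vehicle mice and 25 for the difference of effects, and coding transcripts with rescaling 26 and 24. Without the filter these counts were 0 and 4, without the trend 1 and 6. Fitting only the groups compared gave 0 for MI against sham in vehicle mice and 3 for prednisone in MI. Coding transcripts alone gave 5 for MI against sham in vehicle and 10 in prednisone mice, and the most abundant transcript gave 12 for MI prednisone against sham vehicle. Where MI against sham in vehicle mice came to 0, 9 to 34 genes were at an unadjusted p under 0.05. Where the difference of effects came to 0, 6 and 11 were, and for MI prednisone against sham vehicle 6. Prednisone in sham was 0 under every setting, with 0 or 1 at an unadjusted p under 0.05. The ranges when single libraries were left out were 0 to 9, 4 to 18, 24 to 31, 0 to 0, 1 to 22 and 4 to 27. For the difference of effects there were 8 without MI vehicle 3, 3 without MI prednisone 1 or 2 or sham vehicle 2, 2 without sham prednisone 2, 6 without sham prednisone 3 and 9 without MI vehicle 2.

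Under the replicate block the isoform ratios kept their values (Cox6a2 to Cox6a1 -0.90, Cox8b to Cox8a -0.46 and Cox7a1 to Cox7a2 -0.19 for MI, and Cox7a1 to Cox7a2 0.15 for prednisone) and had an exact permutation adjusted p of 0.0938. The 64 arrangements allow no p below 0.03125 before adjustment over 6 tests, so that this loss of calls says nothing about stability. Same-numbered mice in MI vehicle and MI prednisone had a mean correlation of deviations of -0.25, and the numbers do not pair the mice. With the most abundant transcript, Cox7a1 to Cox7a2 was -0.0939 for MI, and the call was lost. Leaving out single libraries gave -1.04 to -0.64, -0.55 to -0.32 and -0.24 to -0.16 for MI, and for prednisone -0.03 to 0.37 (Cox6a2 to Cox6a1, reversed at -0.0322 without MI vehicle 3), 0.02 to 0.26 (Cox8b to Cox8a) and 0.12 to 0.20. The cause was not tested. Depth is unknown, and 3 mice per group limit every value.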
